A study of Mus musculus with 7 samples.

Results

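Transfer RNAs of mitochondria are encoded by the mitochondrial genome and are modified by enzymes that are encoded in the nucleus and imported. The rows examined here were Cdk5rap1, 8 further enzymes that modify mitochondrial tRNA (Trit1, Mto1, Gtpbp3, Trmu, Trmt5, Osgepl1, Pus1 and Trmt10c) and Cdkal1, the cytosolic relative of Cdk5rap1. The 10 genes were taken by symbol from the deposited table of 24421 symbols, and all 10 passed the filter on low counts that left 13340 genes. Cdk5rap1 was chosen because its transcript differed between the genotypes in an earlier analysis of these samples. Its genotype difference is therefore given as a description. The estimate, its interval and the calls that include it come from the contrast it was chosen on and are no independent evidence. The other 9 genes were listed by function.

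RNA-seq was performed on LSK cells (Lin-Sca1+cKit+), the bone marrow fraction that contains hematopoietic stem cells and multipotent progenitors. Lethally irradiated BoyJ recipients received marrow from RosaCreERT2 donors that were Ddx41+/flox or Ddx41+/+, and recipients of both kinds were given 1 mg injections of tamoxifen, so the controls carried the Cre and the drug as well. Cells were sorted 8 weeks after transplantation from 4 mice with Ddx41+/+ marrow (replicates 1 to 4) and 3 with Ddx41+/- marrow (replicates 6 to 8). CreERT2 at the Rosa locus is not restricted to 1 cell type, ages are not given, and the labels do not state whether residual host LSK cells were gated out.

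Decoding in mitochondria depends on a dense set of chemical groups at and beside the anticodon. Trit1 attaches an isopentenyl group to the adenosine beside the anticodon, and Cdk5rap1, a radical SAM enzyme with iron-sulfur clusters, adds a methylthio group to that modified base. Cdkal1 carries out the corresponding methylthiolation on a threonylcarbamoylated adenosine of a cytosolic tRNA. Mto1 and Gtpbp3 together build the taurine-derived group on the wobble uridine, and Trmu thiolates the same base. Trmt5 methylates guanosine beside the anticodon, Osgepl1 makes threonylcarbamoyladenosine, Pus1 makes pseudouridine, and Trmt10c methylates a purine outside the anticodon loop and is a subunit of mitochondrial RNase P. Loss of several of these enzymes is known to impair mitochondrial translation and respiration.

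Because the results turn on the transcript of Cdk5rap1, with Cdkal1 as the relative it is read against, the 250 bases before the RefSeq start of each gene are shown in GRCm38.p6. The Cdk5rap1 window is chr2:154372720-154372969 and the Cdkal1 window chr13:29855674-29855923, both on the minus strand and both written 5′ to 3′. The GENCODE annotation starts Cdk5rap1 farther upstream, at 154373010, so its whole window lies within the gene as annotated there. Capitals mark a GC box, the only motif of those searched that was found in either window.
Cdk5rap1: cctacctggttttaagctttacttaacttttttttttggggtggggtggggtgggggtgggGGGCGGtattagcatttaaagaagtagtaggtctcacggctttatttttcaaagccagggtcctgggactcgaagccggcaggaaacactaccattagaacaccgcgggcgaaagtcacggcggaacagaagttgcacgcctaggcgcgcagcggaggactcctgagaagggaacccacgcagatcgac
Cdkal1: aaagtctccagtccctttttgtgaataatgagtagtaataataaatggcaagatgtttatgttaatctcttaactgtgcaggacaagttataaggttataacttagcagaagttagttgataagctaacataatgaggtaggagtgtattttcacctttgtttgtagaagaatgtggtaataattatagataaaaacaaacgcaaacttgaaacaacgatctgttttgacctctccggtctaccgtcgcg
The Cdk5rap1 window was 54.0% G and C with 15 CpG dinucleotides, and the Cdkal1 window 34.4% with 6 (median of all 32851 windows, 52.4% and 6). The motifs were searched on both strands. All 10 genes matched the RefSeq table. The windows of Cdk5rap1 and Gtpbp3 lie wholly within the genes as GENCODE annotates them, and others overlap a gene start in part. Positions before a gene are thus relative to the RefSeq start. The GC box (GGGCGG) was present before Cdk5rap1, Gtpbp3, Osgepl1 and Trmt10c (4 of 10 genes, against 32.7% of all windows). The CCAAT box (CCAAT) was present before Gtpbp3, Mto1 and Trit1 (3 of 10, against 33.8%), and an ETS motif (CCGGAAG) before Trmt5 and Trmt10c (2 of 10, against 6.91%). The NRF1 motif, the E-box (CACGTG) and the TATA box (TATAAA) were in 0 of 10 (3.74%, 6.02% and 12.4% of all windows). No motif was shared by more than 4 of the 10 genes.

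Total counts ranged from 32234499 to 43751290 per sample. Ddx41, the targeted gene, averaged 97.9 ± 6.43 CPM (SD, n = 4) with 2 intact alleles and 67.3 ± 2.63 CPM (SD, n = 3) in the heterozygotes, without overlap (log2 fold change -0.54, SE 0.071, edgeR adjusted p = 0.0052). CPM are the usual depth-scaled counts, after adjustment of the sizes by the trimmed mean of M values. Among all genes tested, 29 (0.217%) had a p adjusted by the Benjamini-Hochberg (BH) method under 0.05, 16 of them (0.12%) higher and 13 (0.0975%) lower in Ddx41+/- samples. The LSK gene Kit averaged 466.4 ± 32.2 CPM (SD, n = 4) in wild-type and 467.7 ± 19.4 CPM (SD, n = 3) in heterozygous samples. Of the 6 LSK genes of the marker list, Kit was the only 1 without a lower mean in Ddx41+/- samples. Of these 6, 3 had an unadjusted edgeR p under 0.05 in the lower direction (4.93% of all genes), and 0 passed the BH threshold. The 4 adult globin genes of the late erythroid list had 0 counts in all samples. The summed level of the 10 markers of mature neutrophils stood apart by genotype, at 741 to 1255 CPM in Ddx41+/+ and 1335 to 2283 CPM in Ddx41+/- samples.

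The Cdk5rap1 transcript was about as abundant as that of Trmu in Ddx41+/+ LSK cells and was higher in all Ddx41+/- samples. Cdk5rap1 (ENSMUSG00000027487.11, chromosome 2, 154335380 to 154373010 on the minus strand of GRCm38) had 385, 462, 485 and 431 counts in the wild-type replicates 1 to 4, against 880, 705 and 1184 counts in the heterozygous replicates 6 to 8. Scaled to depth, these were 9.31, 11.96, 15.3 and 11.9 CPM against 22.3, 20.9 and 26.7 CPM. The lowest Ddx41+/- sample, replicate 7, was above the highest Ddx41+/+ sample, replicate 3. The means were 12.1 ± 2.46 CPM (SD, n = 4) and 23.3 ± 3.01 CPM (SD, n = 3), a 1.92-fold difference (log2 fold change 0.95, SE 0.15). Counting error was small beside this spread, at 5.10% for the sample with the fewest Cdk5rap1 counts. The annotation has 7 transcripts of Cdk5rap1 and no gene that overlaps it, and gene totals do not show which transcript was read.

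**Figure D1:**
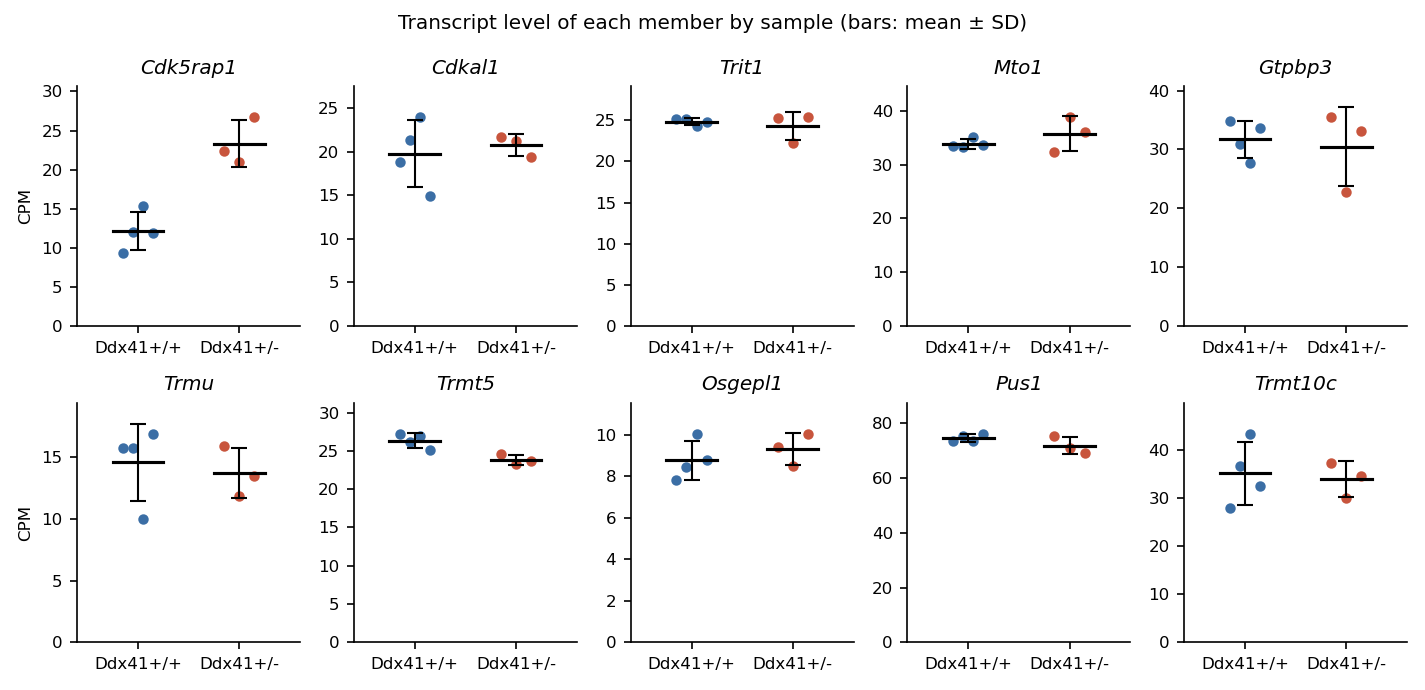
Transcript level (CPM, y axis from 0) of the 10 genes in each Ddx41+/+ (blue, n = 4) and Ddx41+/- (red, n = 3) sample, with the mean ± SD in black. Cdk5rap1 lies between 9.31 and 15.3 CPM in Ddx41+/+ and between 20.9 and 26.7 CPM in Ddx41+/- samples, Trmt5 is also without overlap in the lower direction, and the other 8 genes overlap.

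Neutrophil markers and Cdk5rap1 were both higher in the Ddx41+/- group but were not in the same order within it. Cdk5rap1 was highest in replicate 8 (26.7 CPM), where the summed neutrophil level was the lowest of the group (1335 CPM), and it was 22.3 CPM in replicate 6, where that level was 2283 CPM. Within the Ddx41+/+ group, Cdk5rap1 and the neutrophil level were both lowest in replicate 1 (9.31 and 741 CPM). Both were highest in replicate 3 (15.3 and 1255 CPM). The means of 9 of the 10 neutrophil genes were higher in Ddx41+/- samples, and 7 did not overlap between the genotypes (4.85% of all genes in this direction). Of the 10, 9 had an unadjusted p under 0.05 (5.7% of all genes in this direction), and 1, the gelatinase gene Mmp9, passed the threshold. Mmp9 was at 5.62 ± 1.56 CPM (SD, n = 4) against 16.7 ± 4.14 CPM (SD, n = 3; log2 fold change 1.57, SE 0.209, edgeR adjusted p = 0.00677). Of the other marker lists, B-lineage levels were 42.4 to 63.2 CPM in Ddx41+/+ and 57.0 to 78.7 CPM in Ddx41+/- samples, macrophage levels 166.1 to 184.7 and 161.5 to 221.8 CPM, T and NK cell levels 222.9 to 273.8 and 252.8 to 283.2 CPM, late erythroid levels 24.7 to 48.7 and 35.4 to 58.0 CPM, and LSK levels 1536 to 1702 and 1435 to 1561 CPM. The summed levels of these lists overlapped between the genotypes, with higher Ddx41+/- means for 7 of 7 B-lineage, 6 of 6 macrophage and 1 of 6 LSK genes. Of the 7 B-lineage genes, 3 had an unadjusted edgeR p under 0.05 in the higher direction (5.7% of all genes), and 0 passed the threshold. Most of the T and NK cell sum was Nkg7, with means of 253.4 CPM in Ddx41+/+ and 264.9 CPM in Ddx41+/- samples. Most of the macrophage sum was Csf1r (124.1 and 139.5 CPM). The part of other cells in the Cdk5rap1 difference was not tested, and in sorted bulk RNA a change in the number of cells of a type and a change in RNA per cell cannot be told apart.

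Of the 10 genes, 1 had an adjusted p under 0.05 (background 0.217%), and this was Cdk5rap1, which the choice of genes had fixed. Of the other 9 genes, 0 passed with edgeR, with DESeq2 or with limma-voom, and 0 had an unadjusted p under 0.05 with any of these tools (background of edgeR, 10.6%). Their log2 fold changes lay between -0.14 and 0.087, with a median of -0.047 beside -0.0048 over all genes tested. Each 95% interval was within 0.734-fold and 1.33-fold, the widest limits being those of Trmu and Osgepl1. The summed level of the 9 genes was 264.4, 273.1, 275.1 and 266.3 CPM for wild-type replicates 1 to 4, against 277.1, 249.6 and 265.0 CPM for heterozygous replicates 6 to 8. The highest and the lowest of these sums were both from Ddx41+/- samples.

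**Figure D2:**
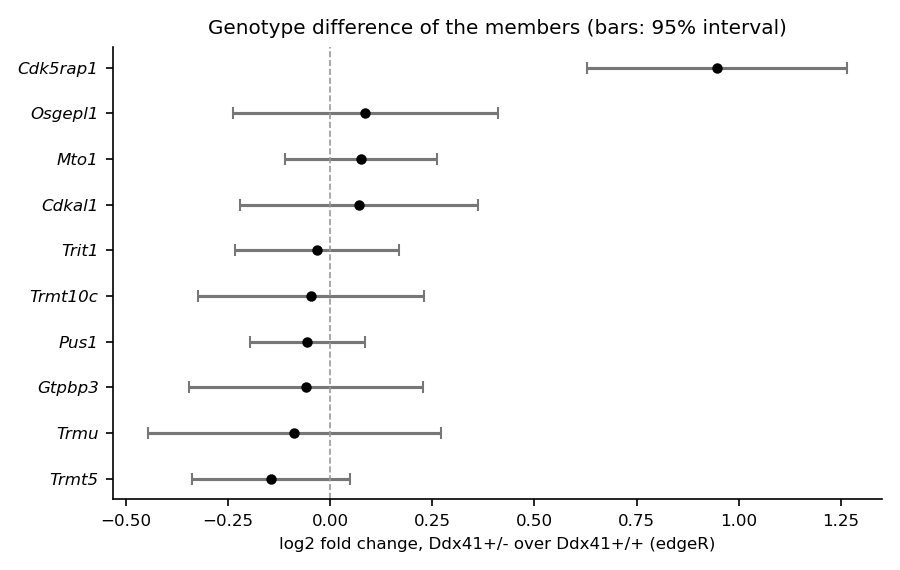
Log2 fold change of each gene (Ddx41+/- over Ddx41+/+, edgeR, x axis) with its 95% interval. Cdk5rap1 is at 0.95, the other 9 points lie between -0.14 and 0.087, and the intervals of these 9 cross 0.

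Trit1, which prepares the base on which Cdk5rap1 acts, was among the most even genes of the group. It was at 25.1, 25.2, 24.3 and 24.8 CPM in Ddx41+/+ and 25.2, 22.3 and 25.4 CPM in Ddx41+/- samples. All samples but Ddx41+/- replicate 7 were within 24.3 and 25.4 CPM. The log2 fold change was -0.032 (95% interval -0.23 to 0.17, edgeR adjusted p = 0.937). Trit1 (ENSMUSG00000028653.16) lies on chromosome 4, 123016597 to 123054949.

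Cdkal1, the cytosolic methylthiotransferase, did not share the higher level of Cdk5rap1. It was at 18.9, 21.4, 24.0 and 14.98 CPM in Ddx41+/+ and 21.7, 21.3 and 19.4 CPM in Ddx41+/- samples, so that the Ddx41+/- samples fell within the Ddx41+/+ range. The log2 fold change was 0.071 (95% interval -0.22 to 0.36, edgeR adjusted p = 0.897). The ratio of Cdk5rap1 to Cdkal1 CPM was 0.493, 0.559, 0.639 and 0.795 in Ddx41+/+ and 1.03, 0.983 and 1.38 in Ddx41+/- samples. Cdk5rap1 counts were thus below those of Cdkal1 in every Ddx41+/+ sample and near or above them in the Ddx41+/- samples, where no length correction enters the ratio. Cdkal1 (ENSMUSG00000006191.17, chromosome 13, 29191746 to 29855674) spans 663929 bases with 11 annotated transcripts, against 37631 bases for Cdk5rap1.

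The enzymes of the wobble uridine were similar between the genotypes. Mto1 (ENSMUSG00000032342.13, chromosome 9, 78448208 to 78475348) was at 33.4, 33.2, 35.2 and 33.7 CPM in Ddx41+/+ and 32.3, 38.8 and 36.1 CPM in Ddx41+/- samples (log2 fold change 0.077, 95% interval -0.11 to 0.26, edgeR adjusted p = 0.809). Its partner Gtpbp3 (ENSMUSG00000007610.15, chromosome 8, 71488103 to 71499583) was at 34.8, 30.9, 27.8 and 33.6 CPM against 35.5, 22.8 and 33.2 CPM (log2 fold change -0.058, 95% interval -0.34 to 0.23, edgeR adjusted p = 0.915). Trmu (ENSMUSG00000022386.12, chromosome 15, 85879312 to 85897394) was at 15.8, 15.7, 10.01 and 16.9 CPM against 15.9, 11.9 and 13.5 CPM (log2 fold change -0.087, 95% interval -0.45 to 0.27, edgeR adjusted p = 0.897). Gtpbp3 and Trmu were each lowest within their genotype in Ddx41+/+ replicate 3 and Ddx41+/- replicate 7. In Ddx41+/- replicate 7 Mto1 went the other way and was the highest of all samples. Gtpbp3 overlaps the 3′ end of Plvap on the opposite strand, and the start of Mto1 overlaps a predicted gene, so some of their counts may be uncertain.

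Trmt5 was the only gene of the group besides Cdk5rap1 whose genotypes did not overlap. It was at 27.2, 26.2, 26.9 and 25.1 CPM in Ddx41+/+ and 24.6, 23.3 and 23.6 CPM in Ddx41+/- samples, and the Ddx41+/- mean was 90.5% of the Ddx41+/+ mean. The difference did not pass the test (log2 fold change -0.14, SE 0.091, 95% interval -0.34 to 0.049, edgeR adjusted p = 0.611). Over all genes tested, 10.1% had no overlap, made up of 4.85% in the higher and 5.21% in the lower direction, and the 2 of 10 here include Cdk5rap1, which was fixed by the choice. Trmt5 (ENSMUSG00000034442.11) lies on chromosome 12, 73280011 to 73286710.

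Osgepl1, Pus1 and Trmt10c also overlapped between the genotypes. Osgepl1 (ENSMUSG00000026096.14, chromosome 1, 53313624 to 53326343) was at 7.81, 8.46, 10.05 and 8.79 CPM in Ddx41+/+ and 9.39, 8.48 and 10.03 CPM in Ddx41+/- samples (log2 fold change 0.087, 95% interval -0.24 to 0.41, edgeR adjusted p = 0.888). Predicted genes overlap it. Pus1 (ENSMUSG00000029507.16, chromosome 5, 110773667 to 110780659) was at 73.4, 75.4, 73.6 and 76.2 CPM against 75.3, 70.8 and 69.3 CPM (log2 fold change -0.056, 95% interval -0.20 to 0.085, edgeR adjusted p = 0.818), and antisense genes overlap it. Trmt10c (ENSMUSG00000044763.8, chromosome 16, 56032609 to 56037819) was at 28.0, 36.6, 43.3 and 32.4 CPM against 37.2, 29.9 and 34.6 CPM (log2 fold change -0.047, 95% interval -0.32 to 0.23, edgeR adjusted p = 0.932). The 3 genes differed in how even they were. The coefficient of variation in Ddx41+/+ samples was 1.84% for Pus1, 10.7% for Osgepl1 and 18.6% for Trmt10c.

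The spread within the Ddx41+/+ group was not the same for all genes and had a shared order in some. Variation was widest for Trmu (21.3%), Cdk5rap1 (20.3%) and Cdkal1 (19.4%) and narrowest for Trit1 (1.66%) and Pus1 (1.84%). Cdk5rap1, Osgepl1 and Trmt10c were each lowest in Ddx41+/+ replicate 1 and highest in replicate 3. These replicates also had the largest and the smallest total counts of that genotype, 40645611 and 32234499. Among Ddx41+/- samples the order was the opposite for Cdk5rap1. It was highest in replicate 8, which had the largest total (43751290), and lowest in replicate 7, which had the smallest (34417465). The trend of expression with GC content, given as Pearson's r across 13243 genes between each gene's deviation from its mean and the GC content of its longest transcript, was 0.121 in replicate 1 and -0.067 in replicate 3, and genes are not independent replicates. Over the Ddx41+/- samples it was 0.0017, -0.101 and -0.041, and the other Ddx41+/+ samples were at -0.00051 and 0.12. GC content was 51.0% for Cdk5rap1, 39.3% for Osgepl1 and 42.2% for Trmt10c, with a median of 49.7% over genes tested. With a correction for GC content and length, an alternative added after the data were seen, the log2 fold change of Cdk5rap1 was 0.99. Its pattern over samples in relation to depth was not tested.

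Per length, the 10 genes covered a wide range of levels. Levels are CPM per kilobase of annotated exon. In Ddx41+/+ samples Pus1 was highest at 34.2 ± 0.63 (SD, n = 4). Trmt5 (12.3 ± 0.449), Trit1 (11.9 ± 0.198) and Trmt10c (11.7 ± 2.17) followed, and their ranges overlapped. Mto1 (8.31 ± 0.224) and Gtpbp3 (7.97 ± 0.787) came next and overlapped as well, then Trmu (3.68 ± 0.782) and Cdk5rap1 (3.53 ± 0.718), again with overlap. Cdkal1 (1.55 ± 0.299) and Osgepl1 (1.43 ± 0.153) were lowest. In Ddx41+/- samples Cdk5rap1 was at 6.79 ± 0.877 (SD, n = 3), above every Trmu value and within the range of Gtpbp3 (5.72 to 8.90). Among the 10 genes, Cdk5rap1 ranked 8, 8, 7 and 8 in the wild-type replicates 1 to 4, against 7, 6 and 7 in the heterozygous replicates 6 to 8. The order depends in part on the annotated length. By the longest transcript, Mto1 ranked 2 rather than 5 in both genotypes, and Cdk5rap1 ranked 6 rather than 7 by its Ddx41+/- mean. Cdkal1 ranked 9 by either length, although its union of exons (12799 bases) is longer than its longest transcript (4383 bases).

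**Figure D3:**
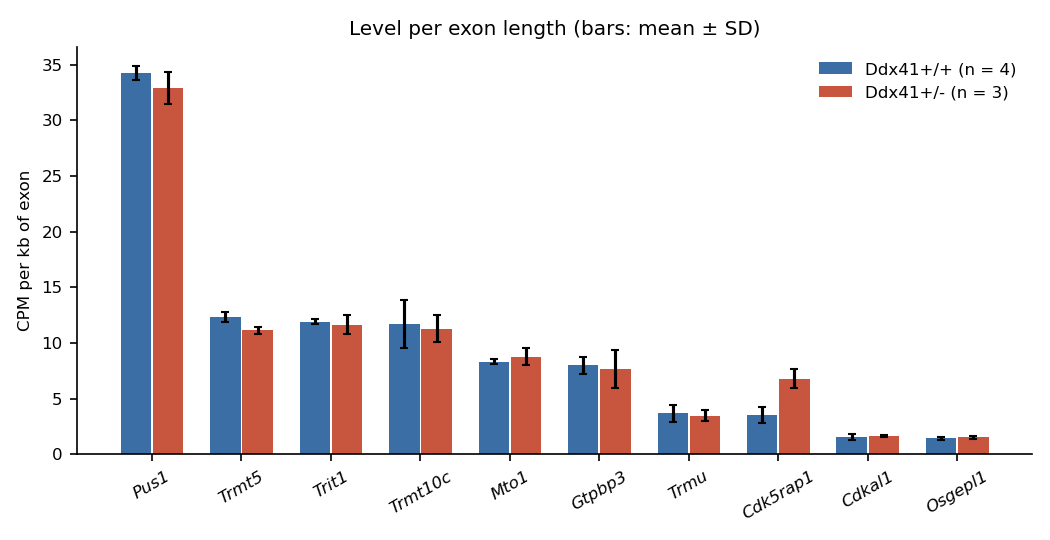
Level per kilobase of exon (CPM per kb, y axis from 0) of the 10 genes in Ddx41+/+ (blue, n = 4) and Ddx41+/- (red, n = 3) samples, as mean ± SD. Pus1 is highest at 34.2 in Ddx41+/+, and Cdk5rap1 is at 3.53 in Ddx41+/+ and 6.79 in Ddx41+/- samples.

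Genes that work before, beside and after these enzymes were read from 8 further lists. They hold 110 genes in the table besides the 10, of which 109 were tested. Of these 109 genes, 0 had an adjusted p under 0.05 with edgeR, DESeq2 or limma-voom, and 8 had an unadjusted p under 0.05 with edgeR (8 with DESeq2 and 7 with limma-voom), 2 with a higher and 6 with a lower mean in Ddx41+/- samples. Of all genes tested, 5.7% had an unadjusted p under 0.05 in the higher and 4.93% in the lower direction. The median log2 fold change was -0.015.

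Among 15 other enzymes and cofactor suppliers of mitochondrial tRNA modification, 0 passed in either direction, and the median log2 fold change was -0.031. The smallest p-values belonged to Alkbh1, an oxygenase that acts on the wobble cytidine of the methionine tRNA, at 47.6 ± 1.91 CPM (SD, n = 4) and 40.1 ± 3.77 CPM (SD, n = 3), and Yrdc, which supplies the threonylcarbamoyl group used by Osgepl1, at 39.4 ± 3.16 and 32.1 ± 6.64 CPM (edgeR adjusted p = 0.311 and 0.384). Of 7 genes of tRNA end processing, 0 passed, with a median of 0.0037. Hsd17b10, the RNase P subunit that binds Trmt10c, had the smallest adjusted p of all 8 lists, with 76.6 ± 3.64 CPM in Ddx41+/+ and 64.8 ± 6.20 CPM in Ddx41+/- samples (log2 fold change -0.24, SE 0.078, edgeR adjusted p = 0.284). Trnt1, which adds the CCA end, was at 54.0 ± 3.40 and 57.1 ± 1.72 CPM (edgeR adjusted p = 0.750).

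The 22 aminoacyl-tRNA synthetases and amidotransferase subunits of mitochondria also gave 0 calls (median log2 fold change -0.017). Gatb, an amidotransferase subunit, was at 20.95 ± 2.48 CPM (SD, n = 4) and 24.4 ± 1.84 CPM (SD, n = 3) (edgeR adjusted p = 0.519). Of 12 mitochondrial translation factors 0 passed (median 0.027), with the smallest p for the elongation factor Gfm2 at 38.7 ± 3.07 and 43.7 ± 3.79 CPM and the initiation factor Mtif2 at 40.5 ± 0.938 and 44.6 ± 2.03 CPM (edgeR adjusted p = 0.525 and 0.554). Of 9 genes of mitochondrial transcription and RNA stability 0 passed (median 0.031). Pnpt1, a ribonuclease, was at 52.5 ± 3.41 and 59.8 ± 1.06 CPM and Tefm, a transcription elongation factor, at 11.9 ± 2.31 and 14.3 ± 2.94 CPM (edgeR adjusted p = 0.377 and 0.617).

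**Figure D4:**
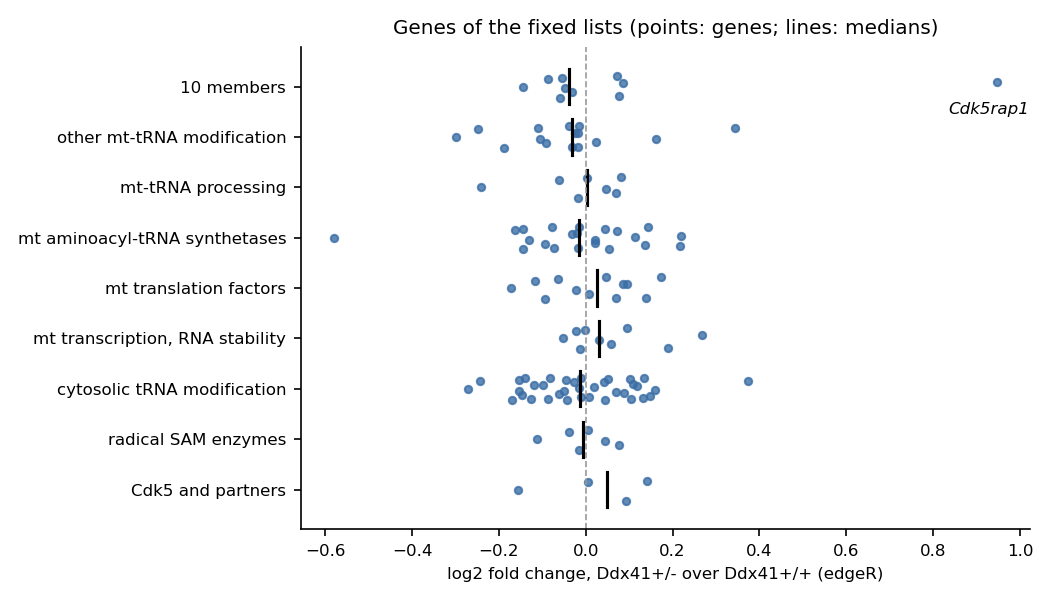
Log2 fold change (Ddx41+/- over Ddx41+/+, edgeR, x axis) of each tested gene of the 10 genes examined and of the 8 further lists, with the median of each list as a line. The medians lie between -0.040 and 0.049, and Cdk5rap1 at 0.95 is the farthest point on the higher side.

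Enzymes that modify cytosolic tRNA served as a comparison with Cdkal1. Of 36 tested, 0 passed (median log2 fold change -0.014). The dihydrouridine synthase Dus2 was at 10.1 ± 1.23 CPM (SD, n = 4) and 13.1 ± 0.663 CPM (SD, n = 3), and Ctu1, which thiolates the cytosolic wobble uridine, at 23.2 ± 1.32 and 19.6 ± 2.33 CPM (edgeR adjusted p = 0.341 and 0.434). Of 6 other radical SAM enzymes, the family to which Cdk5rap1 belongs, 0 passed (median -0.0055), and Rsad1 and the lipoate synthase Lias had the smallest p (edgeR adjusted p = 0.706 and 0.825). The gene takes its name from binding to the activator of Cdk5. Cdk5, Cdk5r1, Cdk5rap2 and Cdk5rap3 were tested and 0 passed. Cdk5rap2 was at 60.1 ± 2.42 and 66.3 ± 8.42 CPM, Cdk5r1 at 12.0 ± 0.726 and 10.8 ± 0.95 CPM (edgeR adjusted p = 0.583 and 0.726), and the activator gene Cdk5r2 had 0 counts in all samples.

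The tested genes around Cdk5rap1 on chromosome 2 were not called different between the genotypes. Within 500 kb of the gene the annotation placed 27 symbols of the table, of which 10 were tested and 13, mostly of the Bpif cluster, had 0 counts in all samples. Of the 10, 0 had an adjusted p under 0.05 and 0 an unadjusted p under 0.05 with edgeR, DESeq2 or limma-voom. The 3 with the smallest p were E2f1, a cell cycle transcription factor, Pxmp4, a peroxisomal membrane protein, and Raly, an RNA-binding protein. E2f1 was at 89.6 ± 4.68 CPM (SD, n = 4) and 81.1 ± 4.36 CPM (SD, n = 3), Pxmp4 at 20.1 ± 0.689 and 17.2 ± 1.89 CPM, and Raly at 347.7 ± 8.13 and 319.9 ± 22.8 CPM (edgeR adjusted p = 0.484, 0.503 and 0.515). These 3 had lower means in Ddx41+/- samples, opposite to Cdk5rap1. Necab3, at a low 1.51 ± 0.523 CPM (SD, n = 4) and 1.84 ± 0.18 CPM (SD, n = 3), had a wide 95% interval of -0.49 to 1.06. This interval includes the 0.95 of Cdk5rap1, so a difference of that size cannot be told from none for Necab3. Cbfa2t2, a transcriptional corepressor 63.5 kb away, was at 48.1 ± 3.01 CPM (SD, n = 4) and 47.7 ± 3.23 CPM (SD, n = 3), with a 95% interval of the log2 fold change of -0.19 to 0.16. It was picked by its position, after its values were seen.

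**Figure D5:**
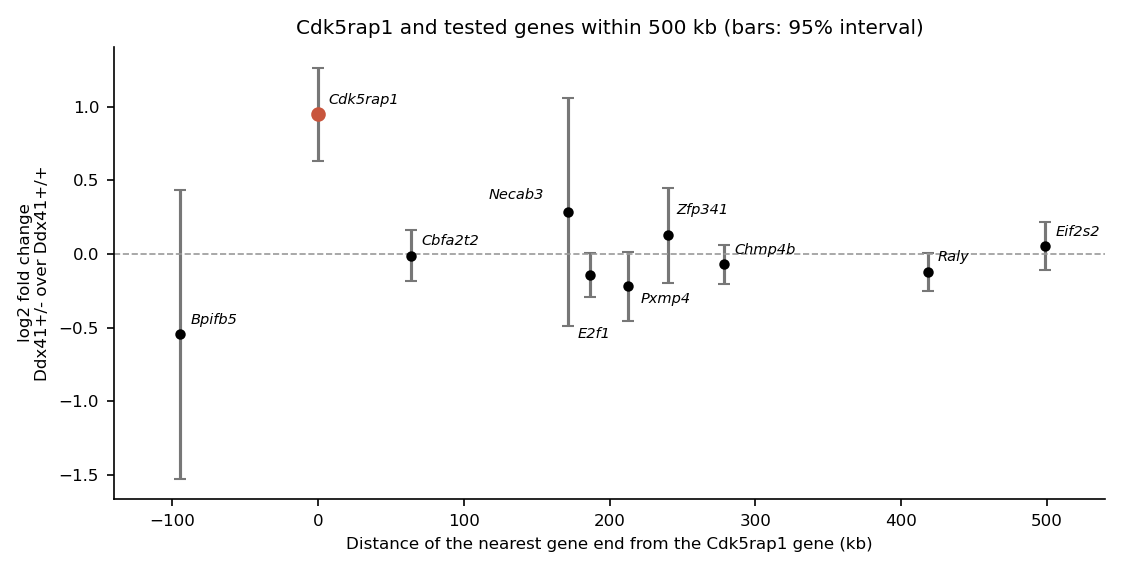
Log2 fold change (Ddx41+/- over Ddx41+/+, edgeR, y axis) with its 95% interval of Cdk5rap1 (red) and 9 of the 10 tested genes within 500 kb, against the distance of their nearest end from the Cdk5rap1 gene in kb. The point of Cdk5rap1 is at 0.95, and the intervals of the 9 other genes cross 0. The wide interval of Necab3 also includes 0.95.

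The genes whose pattern over the 7 samples was most like that of Cdk5rap1 were ranked by Pearson's r of log2 CPM among 10116 other genes with a mean of at least 5 CPM, as a description. Symbols that start with Gm or end in Rik were passed over in naming the top 5. The 5 named were Ercc6l2 (r = 0.978, Spearman's rho = 0.964), Abce1 (0.977 and 0.964), Matr3 (0.9749 and 1), Suz12 (0.973 and 0.857) and Gpcpd1 (0.963 and 0.929). Without Ddx41+/+ replicate 1 and Ddx41+/- replicate 8, the samples farthest from the median of Cdk5rap1, r was between 0.916 and 0.969 over the 5 left. All 5 genes were higher in the Ddx41+/- samples without overlap (4.85% of all genes tested in this direction). Their choice by r with Cdk5rap1, itself without overlap, favours this, so it is no separate result. They were higher by less than Cdk5rap1, from 1.07-fold for Abce1 to 1.28-fold for Gpcpd1. Their GC content was 37.6% to 44.0%, lower than that of Cdk5rap1. Within the group of 10, r with Cdk5rap1 ranged from -0.810 for Trmt5 to 0.683 for Osgepl1. Without the same pair of samples these were -0.623 and 0.213, and within genotype -0.095 and 0.959. Since Cdk5rap1 differs by genotype, any gene that differs in the same direction takes part of its r from the genotype.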

How the data were processed

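The authors isolated RNA from sorted cells, prepared poly(A) libraries, and deposited a table of gene counts without normalization. The labels' processing notes name FastQC 0.11.7, HISAT2 2.0.5, featureCounts 1.5.2 and mm10, without parameters. The labels give a stranded kit and the methods another, so counts of overlapping genes are uncertain. Per its name, the table lacks a Ddx41+/- library that was removed for a reason not stated, and 0 columns of sample values were left unused. In all 21 pairs of samples counts differed beyond sampling noise (chi-square per gene at least 13.7), and whether the samples came from separate donors is not stated, so p-values measure the spread between these samples.

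Samples were grouped by the genotype label. Differential expression was tested with edgeR 4.0.16 in R 4.3.3 (quasi-likelihood, robust, TMM scaling, filterByExpr), with BH adjustment over 13340 genes at 0.05. The script was tested on simulated data. SE was obtained from each log2 fold change and its F statistic, and log2 CPM used a prior count of 2. The biological coefficient of variation was 12.9%. Alternatives were DESeq2 1.42.0, limma-voom (limma 3.58.1), other scalings and filters, a GC and length correction, and each sample left out. Symbols were matched to GENCODE M21 of GRCm38 (23376 directly, 651 by an older symbol, 394 unmatched), and promoters were from RefSeq (GRCm38.p6). The genes and lists were chosen with earlier results of these data known. Genes were named by a rule, namely the 10 genes, Ddx41, in each list those past the threshold or else the 2 with the smallest p, the 3 neighbours with the smallest p, and the 5 genes most like Cdk5rap1, with predicted genes left out. Kit, Nkg7, Csf1r, Cxcr2, Hsd17b10's rank over lists, Cbfa2t2, Necab3, Cdk5, Cdk5r2, Cdk5rap3, Lars2 and Rn45s were singled out after their values were seen. Some genes that the rule or the plot would name are not reported here. Of the list symbols, Tp53rk had no single matching row. Transcripts encoded by the mitochondrial genome were not analysed here. Counts of reads cover counting error only.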

Additional observations from a re-analysis of the deposited data

Results flagged for a closer look

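Of 24 values checked within the 4 Ddx41+/+ samples, where chance gives about 1.2, 1 stood out. Trmu was at 10.01 CPM in Ddx41+/+ replicate 3 and at 15.7 to 16.9 CPM in the other 3 samples, a gap of 0.830 of the whole range, just above Dixon's 95% critical value for 4 samples. That sample had the smallest total count of the 7.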

How the results depend on the processing

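The number of genes with an adjusted p under 0.05 (29) was 15 with library totals only, 156 with DESeq2, 10 with limma-voom, 14 without the robust fit, 91 without a filter and 71 with the correction for GC content and length, which was chosen after seeing the data, and from 7 to 41 when 1 sample was left out (7 without Ddx41+/+ replicate 2, 16 without Ddx41+/+ replicate 3, 14 without Ddx41+/- replicate 7, 9 without Ddx41+/- replicate 8). The cause was not tested. The number among the 10 genes (1, Cdk5rap1) was 1 in the 9 fits with all samples and from 0 to 1 when 1 sample was left out, being 0 without Ddx41+/+ replicate 2 or Ddx41+/- replicate 8. The log2 fold change of Cdk5rap1 was 0.94 to 0.99 in the 9 fits and 0.84 to 1.08 when 1 sample was left out. The other 9 genes, the 8 further lists and the neighbours gave 0 calls in all 16 alternative fits, and Ddx41 kept its direction and an adjusted p of at most 0.0324. The sign of small differences changed for Trit1 (0.0034) and Pus1 (0.0037) with the GC and length correction, and when 1 sample was left out the log2 fold change ranged from -0.041 to 0.17 for Cdkal1, -0.065 to 0.025 for Trit1, -0.18 to 0.11 for Gtpbp3, -0.23 to 0.0047 for Trmu and -0.14 to 0.069 for Trmt10c. With the longest transcript in place of the exon union, the level per kilobase over all samples was 7.83 for Cdk5rap1 (4.93 with the union), 4.62 for Cdkal1, 14.7 for Mto1, 11.0 for Gtpbp3, 6.86 for Trmu, 2.25 for Osgepl1 and 39.3 for Pus1, by construction. Across all genes, the median difference on the log2 scale stayed between -0.019 and -0.0016. No paired analysis was possible because the genotypes share no replicate number. The share of counts of mitochondrially encoded mRNAs was not run. With 4 and 3 samples, differences of the 9 genes smaller than their intervals were not detectable.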

Other observations

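Among the mitochondrial tRNA synthetases, Lars2, the leucine enzyme, stood apart in level and spread. It was at 3041, 3343, 5297 and 1562 CPM in wild-type replicates 1 to 4, against 3895, 2314 and 435 CPM in heterozygous replicates 6 to 8. The mean of Gatb, of the same list, was under 25 CPM in both genotypes. The log2 fold change of Lars2 was -0.58 (SE 0.81, edgeR adjusted p = 0.862). Lars2 held from 0.0441% to 0.52% of the counts. Rn45s, the ribosomal RNA precursor, held from 0.623% to 2.92%, and both were highest in Ddx41+/+ replicate 3 and lowest in Ddx41+/- replicate 8. Why they share these samples, and whether all counts of the Lars2 row came from its mRNA, was not tested. These genes were singled out after their values were seen.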
